A study of Mus musculus with 69 samples.

Results

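The 8 genes described here belong to cholesterol synthesis and its control, and were taken by name from a count table of 9930 genes. Mvk, Pmvk and Fdps act early in the pathway, Cyp51, Hsd17b7 and Dhcr7 act in its sterol part, and Insig1 and Insig2 hold the pathway in check. The table held 1 row for each, so all 8 were found, and all 8 passed the filter on low counts. Levels were read in the hippocampus of 69 male mice by RNA sequencing of total RNA, 1 library per animal. The study crossed genotype (Cdh13 knockout or wildtype) with early rearing (maternal separation or control) at 2 ages, postnatal day 22 (P22) and postnatal day 66 (P66).

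In the separated groups the litter was taken from its dam for 3 h a day from postnatal day 1 to postnatal day 14, while control litters were handled only. At P22, the day of weaning, wildtypes numbered 8 under control rearing and 11 after separation, and knockouts 9 and 10. At P66, in adulthood, wildtypes numbered 7 under control rearing and 10 after separation, and knockouts 7 and 7. The animals came from 2 rounds of breeding, called cohorts in the labels, with 33 libraries in cohort 1 and 36 in cohort 2. Both cohorts were present in every group, but not evenly. Separated knockouts had the most uneven split, with 2 in cohort 1 and 8 in cohort 2 at P22, and 5 and 2 at P66. Cohort and age were thus partly mixed in separated knockouts. The labels name neither strain nor litter, so littermates cannot be recognised, and every p-value treats the animals as independent. The tissue was taken from frozen brain slices, so its borders could vary between animals.

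Cholesterol does not pass from the blood into the brain, and the brain makes its own, most heavily while oligodendrocytes wrap axons in myelin. The pathway turns mevalonate into isoprenoids, joins these into the first sterol and then trims that sterol to cholesterol. Insig proteins sit in the endoplasmic reticulum, where they hold back the transcription factor SREBP and promote loss of the rate-limiting reductase when sterols are plentiful; SREBP in turn raises most genes of the pathway, Insig1 among them.

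The start regions of the genes are shown first, because SREBP acts through short letters near the start of its target genes, often beside CCAAT and GC boxes. RefSeq start regions (GRCm38.p6, from 250 bases before to 50 bases after a start) were matched by symbol for 7 of the 8 genes, with 12 regions in all; Fdps had none. The sterol regulatory element letters TCACNCCAC, searched on both strands, were in 0 of the 12 regions and in 1.24% of the 32851 start regions of all genes. CCAAT was in 7 of the 12 regions, against 37.4% of all regions, and the GC box GGGCGG was in 8, against 35.7%. A related run, TCACCTCA, chosen after the regions had been read, was found in Cyp51 at position -88 and in Hsd17b7 at position -117, counted from the start, and in 1.17% of all regions. No match in such a window says only that these letters are not in it. The Insig2 regions other than the first listed are not shown, and each held 1 GC box and no CCAAT. The regions below were chosen after the values had been seen. They are those of the enzyme that fell most with age, of the other gene with the related run, and the first listed of each Insig gene, whose levels moved differently. They read 5′ to 3′ along the gene's own strand, and capitals mark TCACCTCA, CCAAT and GGGCGG or their reverse complements, none of which overlap here.
Cyp51 (chr5:4104648-4104947, minus strand): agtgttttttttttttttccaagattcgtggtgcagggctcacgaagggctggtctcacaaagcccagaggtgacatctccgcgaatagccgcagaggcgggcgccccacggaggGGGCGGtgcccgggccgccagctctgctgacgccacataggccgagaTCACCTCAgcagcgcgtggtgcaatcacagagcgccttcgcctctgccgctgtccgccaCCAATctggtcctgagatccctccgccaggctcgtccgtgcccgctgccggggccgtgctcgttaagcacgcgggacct
Hsd17b7 (chr1:169969156-169969455, minus strand): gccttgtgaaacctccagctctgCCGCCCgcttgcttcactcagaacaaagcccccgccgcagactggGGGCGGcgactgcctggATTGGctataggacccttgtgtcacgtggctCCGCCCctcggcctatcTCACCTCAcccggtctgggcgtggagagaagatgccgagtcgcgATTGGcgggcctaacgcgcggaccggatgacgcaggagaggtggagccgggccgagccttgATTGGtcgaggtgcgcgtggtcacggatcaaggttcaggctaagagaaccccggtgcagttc
Insig1 (chr5:28071162-28071461, plus strand): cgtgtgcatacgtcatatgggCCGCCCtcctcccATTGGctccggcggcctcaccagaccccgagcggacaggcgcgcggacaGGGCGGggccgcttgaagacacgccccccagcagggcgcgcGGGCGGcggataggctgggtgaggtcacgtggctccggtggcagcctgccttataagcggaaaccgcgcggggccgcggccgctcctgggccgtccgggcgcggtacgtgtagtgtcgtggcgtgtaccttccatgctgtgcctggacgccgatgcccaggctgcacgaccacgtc
Insig2 (chr1:121332540-121332839, minus strand): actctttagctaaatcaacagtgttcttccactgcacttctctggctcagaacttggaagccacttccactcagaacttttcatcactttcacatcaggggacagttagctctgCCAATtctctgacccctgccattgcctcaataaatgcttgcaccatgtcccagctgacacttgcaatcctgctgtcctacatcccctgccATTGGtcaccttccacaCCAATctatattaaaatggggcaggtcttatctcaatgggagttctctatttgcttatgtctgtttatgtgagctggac

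The table holds chromosomes 1 to 7 and the start of 8, and levels are counts-per-million values (CPM) of the reads it holds, on sizes scaled by the trimmed mean method. Libraries held between 11283370 and 16365465 counts, and each of the 8 genes had between 426 and 3316 counts in every library. Cdh13 was not analysed here, and no check of the genotype labels could rest on it. The age labels were checked on genes chosen after their values were seen: Mki67, a proliferation gene, was lower at P66 by a log2 change of -1.08, and Marcksl1, a gene of growing neurons, by -0.99. Of 10 listed hippocampus markers 6 were in the table, among them Prox1 of the dentate gyrus, at a mean of 322.7 CPM at P22 and 271.8 CPM at P66. Choroid plexus RNA varied widely. The summed level of 7 of its markers ran from 57.2 to 513.9 CPM at P22 and from 52.6 to 561.3 CPM at P66. In 6 libraries the mean log2 level of these markers lay between -3.74 and -2.14 from the median of all libraries. These 6 were picked by distance from that median, not by a gap from the other libraries. Results that moved without those 6 libraries are given both ways.

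To compare levels between genes, CPM were divided by the annotated exon length in kilobases. At P22 the order was Pmvk (50.2 ± 3.94, SD, n = 38), Insig1 (48.6 ± 6.08), Cyp51 (44.7 ± 4.25), Fdps (33.8 ± 3.11), Insig2 (31.3 ± 2.21), Mvk (21.9 ± 2.25), Dhcr7 (20.6 ± 1.55) and Hsd17b7 (12.4 ± 1.19). Of neighbours in this order, Pmvk and Insig1, Insig1 and Cyp51, Fdps and Insig2, and Mvk and Dhcr7 lay closer than the larger of their SDs. At P66 Insig1 (46.8 ± 6.03, n = 31) and Pmvk (44.5 ± 4.05) led, followed by Insig2 (33.8 ± 2.37) and Cyp51 (30.3 ± 2.45), with Insig2 now ahead of Cyp51 and Fdps. Fdps (27.3 ± 2.53), Mvk (17.5 ± 1.95), Dhcr7 (16.0 ± 1.37) and Hsd17b7 (10.1 ± 0.730) kept their order among themselves, and Insig1 and Pmvk, and Mvk and Dhcr7, again lay closer than the larger SD. Exon length is only a rough guide, since the isoforms in use are unknown.

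**Figure D1:**
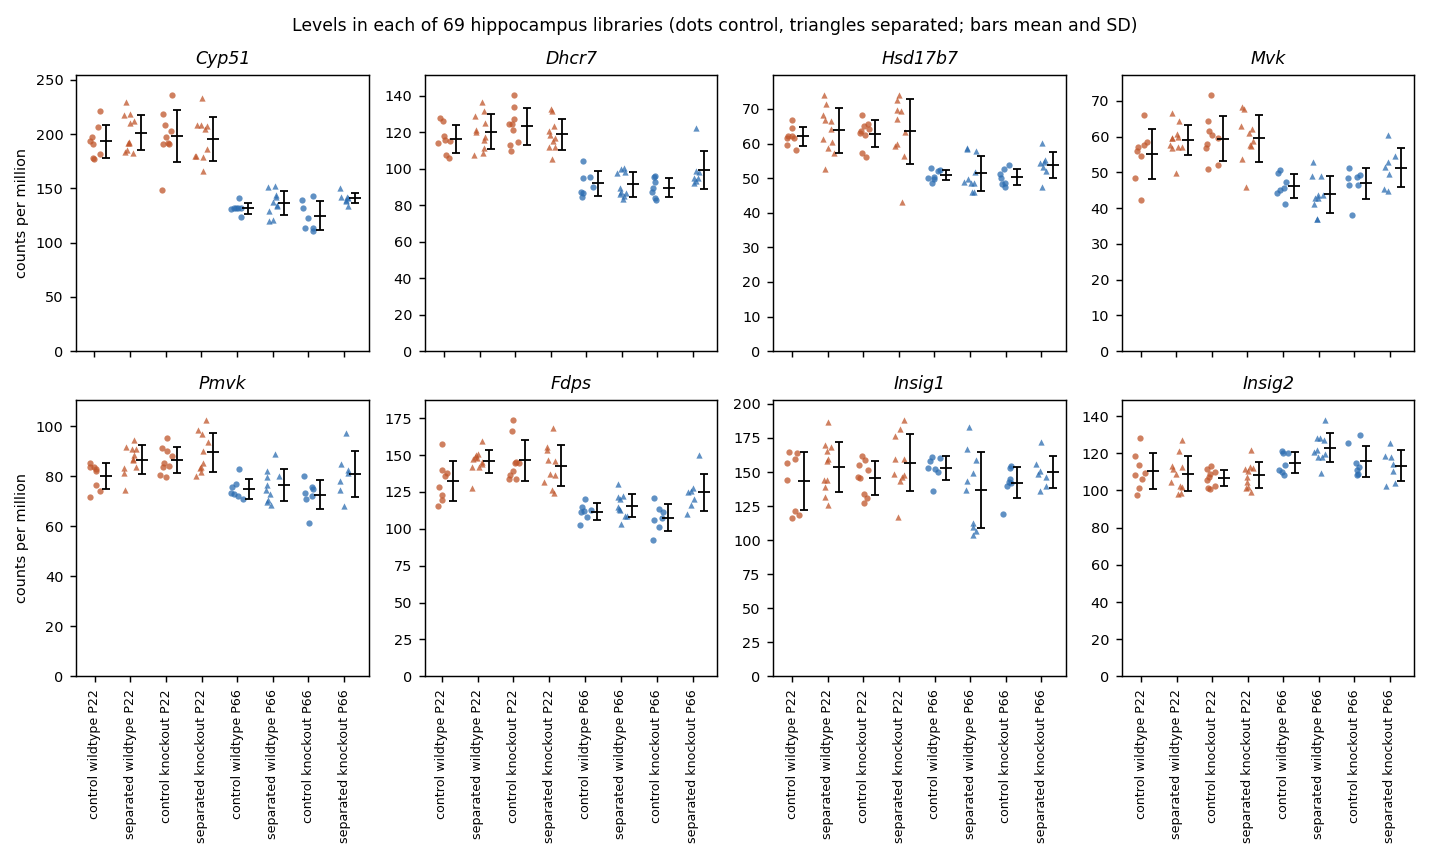
Level of each gene in CPM (vertical axis, from 0) in every library, by group (horizontal axis). Dots are control and triangles separated animals, orange is P22 and blue is P66, and black bars give the mean and SD of each group. Cyp51 and Dhcr7 stand lower at P66 in every group, while the ranges of Insig1 overlap over most of their length.

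The first comparison asks how the genes changed between weaning and adulthood. Levels of all 6 enzymes were lower at P66 than at P22, Insig2 was slightly higher, and the change in Insig1 did not pass the test. A gene is said to have changed, or to be called, when its edgeR quasi-likelihood p, adjusted over all 7131 genes tested, is under 0.05. Of the 8 genes, 6 fell and 1 rose. Over all genes tested 52% were called in this comparison, 25.8% lower and 26.2% higher, so a single call is common here. The median log2 change of the 8 genes was -0.30, against 0.01 over all genes tested. In bulk tissue fewer cells of a type and less RNA per cell cannot be told apart.

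Among the sterol enzymes Cyp51, which removes a methyl group from lanosterol, changed most. Its level ran from 148.2 to 236.1 CPM at P22 (median 193.1, n = 38) and from 111.2 to 152.3 CPM at P66 (median 134.2, n = 31). The ranges met only at their edges: 28 of the 31 P66 libraries lay below every P22 library. The log2 change was -0.57 ± 0.0314 (SE; adjusted p = 1.02e-24), a 1.48-fold fall. It was -0.51 in cohort 1 alone and -0.62 in cohort 2 alone. Cyp51 shares 166 exon bases with Akap9 on the opposite strand, and whether counting used strand is not given in the sources used here. Akap9 itself had a log2 change of -0.05 (adjusted p = 0.495).

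Dhcr7 encodes the reductase of the last step to cholesterol. It ran from 105.1 to 140.4 CPM at P22 (median 118.1) and from 82.9 to 122.4 CPM at P66 (median 92.5). Only 1 of the 31 P66 libraries, a separated knockout animal at 122.4 CPM, reached into the P22 range. The log2 change was -0.37 ± 0.0271 (adjusted p = 9.74e-19).

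Hsd17b7, which reduces a keto group left after demethylation, ran from 42.97 to 74.01 CPM at P22 (median 63.2) and from 45.9 to 60.2 CPM at P66 (median 51.2). All 31 P66 libraries lay below the P22 median, but a single P22 library, a separated knockout animal at 42.97 CPM, lay below all of them. The log2 change was -0.29 ± 0.0319 (adjusted p = 3.91e-12).

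The early enzymes fell less than Cyp51. Mvk, the kinase that first phosphorylates mevalonate, ran from 42.4 to 71.6 CPM at P22 (median 58.2) and from 37.0 to 60.4 CPM at P66 (median 46.5). Its log2 change was -0.31 ± 0.0364 (adjusted p = 3.99e-11), and 30 of the 31 P66 libraries lay below the P22 median. Pmvk, the kinase of the next step, ran from 71.6 to 102.5 CPM at P22 (median 84.7) and from 61.2 to 97.5 CPM at P66 (median 75.03). It had the smallest fall of the 6 enzymes, with a log2 change of -0.17 ± 0.0276 (adjusted p = 6.75e-07), and the ages overlapped over most of their range. Fdps makes farnesyl diphosphate, where the sterol branch leaves the other isoprenoid branches. It ran from 115.5 to 173.6 CPM at P22 (median 143.0) and from 92.2 to 149.8 CPM at P66 (median 113.3). The log2 change was -0.31 ± 0.0294 (adjusted p = 4.83e-14), and 19 of the 31 P66 libraries lay below every P22 library. Fdps shares 1124 exon bases with the same-strand gene model Gm43738, so reads could be split between the pair. Gm43738 changed by -0.09 (adjusted p = 0.00218).

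The regulators moved less than most of the enzymes. Insig1 ran from 116.1 to 188.0 CPM at P22 (median 150.3) and from 103.6 to 183.0 CPM at P66 (median 148.3), with 13 of the 31 P66 libraries above the P22 median. Its log2 change was -0.05, with a 95% interval from -0.14 to 0.03 (adjusted p = 0.306), -0.00438 in cohort 1 alone (adjusted p = 0.965) and -0.13 in cohort 2 alone (adjusted p = 0.0592). In separated wildtypes Insig1 was at -0.18 ± 0.0782 (adjusted p = 0.0782), close to Pmvk there (-0.18, adjusted p = 0.00293). In cohort 2 alone it was called in that group (-0.48 ± 0.104, adjusted p = 0.00195), and in cohort 1 alone it was at -0.00031 (adjusted p = 0.998). The cohort 2 value uses the libraries of a cohort split described below, which was noticed after the values had been seen. Insig2 ran from 97.5 to 128.4 CPM at P22 (median 108.4) and from 102.3 to 137.8 CPM at P66 (median 117.9). Of the 31 P66 libraries, 27 lay above the P22 median, and the log2 change was 0.11 ± 0.0245 (adjusted p = 2.24e-04). In cohort 2 alone the change in Insig2 was 0.08 (adjusted p = 0.0690), and in cohort 1 alone 0.15 (adjusted p = 0.00319).

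Within the groups the enzymes moved the same way. In control wildtype animals 5 genes fell, where 10.5% of all genes tested were called lower, and in separated wildtype animals 6 fell and Insig2 rose, where 16.4% were called lower and 14.5% higher. In control knockout animals 6 fell, against 14.9% of all genes, and in separated knockout animals 5 fell, against 11.1%. Cyp51 changed in wildtypes by -0.55 ± 0.0657 under control rearing and -0.56 ± 0.0553 after separation, and in knockouts by -0.67 ± 0.0643 and -0.48 ± 0.0648. Pmvk was the enzyme not called in control wildtype (-0.10, adjusted p = 0.277) and in separated knockout animals (-0.13, adjusted p = 0.0929). The separated knockout count of 5 became 3 without the 6 libraries low in choroid plexus RNA, and 3 without the P66 separated knockout library numbered 84 of cohort 2.

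Taken over all groups, none of the 8 genes had ages that did not overlap; 0.505% of all genes tested were lower in every P66 library than in any P22 library, and 0% higher. Within groups, Cyp51 was lower in every P66 animal than in any P22 animal in all 4 groups, Dhcr7 in 3, Hsd17b7 in 2 and Fdps in 1. The share of all genes with such a gap was 3.87% and 2.89% in control and separated wildtypes, and 3.77% and 2.01% in control and separated knockouts.

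**Figure D2:**
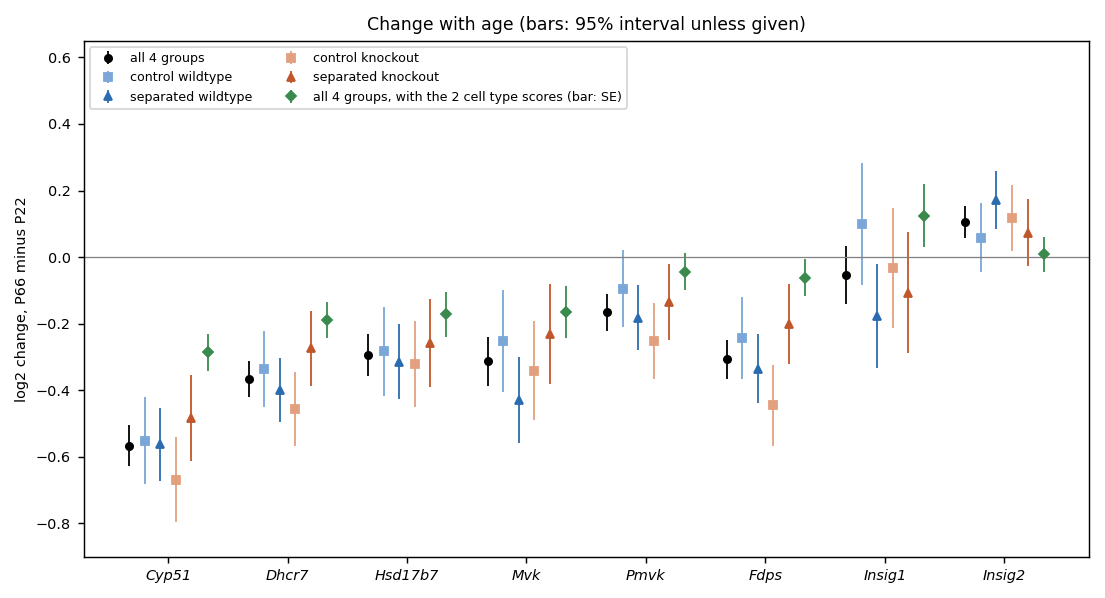
Log2 change from P22 to P66 (vertical axis) for each gene, over the 4 groups together (black) and in each of them, with 95% intervals. Green diamonds give the change over the 4 groups when scores of myelinating oligodendrocyte and choroid plexus genes are in the model, with SE bars. Over the 4 groups together the enzymes lie below 0 with intervals that leave out 0, Insig1 has an interval that holds 0, and Insig2 lies above 0. In separated wildtypes Insig1 lies below 0 at about the level of Pmvk, and the green values are closer to 0 for the 6 enzymes.

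Myelin RNA moved with age in the same direction and further. Of 18 listed markers of myelinating oligodendrocytes, 9 were in the table, and all 9 fell, with a median log2 change of -1.38. Ugt8a, which makes a myelin galactolipid, changed by -1.81 and Mag, a myelin adhesion protein, by -1.38. The summed level of the 9 ran from 2159 to 5178 CPM at P22 (median 3165) and from 952.1 to 2410 CPM at P66 (median 1269), and none was at 0 in any library. The 3 measured markers of oligodendrocyte precursors, Neu4, Pdgfra and Lhfpl3, also fell (median -0.40; summed level 216.6 to 309.9 CPM at P22 and 174.5 to 220.7 CPM at P66). Of 5 measured astrocyte markers 4 fell (median -0.15), with a summed level of 7890 to 9652 CPM at P22 and 7106 to 8459 CPM at P66.

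With scores of the myelinating oligodendrocyte and choroid plexus markers in the model, 2 of the 8 genes were called with age in place of 7, and 1075 genes in place of 3707 over the whole table. Cyp51 (-0.29 ± 0.0564, adjusted p = 1.16e-04) and Dhcr7 (-0.19 ± 0.0539, adjusted p = 0.0104) were the genes called. Hsd17b7 (-0.17, adjusted p = 0.0813), Mvk (-0.16, adjusted p = 0.155), Fdps (-0.06, adjusted p = 0.526), Pmvk (-0.04, adjusted p = 0.682) and Insig2 (0.01, adjusted p = 0.948) were not. Insig1 turned from -0.05 to 0.12 (adjusted p = 0.434). The score itself differs strongly between the ages, and the SE of each gene rose with it. The part of oligodendrocyte number in the falls was not tested.

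Other genes of the pathway were sparse in the table. Of 17 other synthesis enzymes 2 were measured and both fell, among them Lbr, a sterol reductase of the nuclear envelope, with a log2 change of -0.08 (adjusted p = 0.0189). Of 14 genes of sterol sensing only Ubxn4 was measured (-0.01, adjusted p = 0.822). Of 26 genes of uptake, efflux and turnover 12 were measured, of which 3 fell and 9 did not pass. Among the 3 were Apoe, the main apolipoprotein of brain (-0.14, adjusted p = 0.00397), and Scarb1, a lipoprotein receptor (-0.07, adjusted p = 0.0212). Of 12 genes that use isoprenoids for other products 6 were measured. Coq2, of coenzyme Q synthesis, rose (0.21, adjusted p = 2.52e-16), Dolk, the dolichol kinase, fell (-0.14, adjusted p = 2.54e-04), and 4 did not pass. Of 12 fatty acid synthesis genes 3 were measured: Elovl6, an elongase, fell (-0.49, adjusted p = 4.58e-17), Thrsp rose (0.12, adjusted p = 0.0299), and Acss2 did not pass (-0.00044, adjusted p = 0.987).

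The change with age was then compared between genotypes and between rearing groups. None of the 8 genes was called for a different change with age in knockout and wildtype animals, where 0% of all genes were called and 2.15% had an unadjusted p under 0.05. None was called for a different change in separated and control animals, where 0.0421% were called and 6.73% had an unadjusted p under 0.05. Differences between genotypes lay between -0.05 for Pmvk and 0.05 for Mvk on the log2 scale, and the 95% intervals of the 8 genes stayed between -0.206 and 0.200. For rearing the largest difference was that of Insig1, -0.17 with an interval from -0.35 to 0.00 (adjusted p = 0.736).

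The 3-way term, which asks whether the effect of rearing on the change with age differs between genotypes, was positive for 7 of the 8 genes, with a median of 0.20 against -0.01 over all genes tested. No gene of the 8 was called, and 0.014% of all genes were. At an unadjusted p under 0.05 there were 2 of the 8, Dhcr7 (0.25) and Fdps (0.34), and 14% of all genes. Fdps had an interval from 0.10 to 0.57 (adjusted p = 0.300). DESeq2 and limma-voom called 0 of the 8 in each of these 3 comparisons.

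The study analysed each age separately as a cross of genotype and rearing. At P22 none of the 8 genes passed the adjusted test between knockout and wildtype animals. No gene of the table was called (0%), and 4.11% of all genes but 0 of the 8 had an unadjusted p under 0.05. The largest difference was in Pmvk, 0.07 with an interval from 0.00 to 0.14 (19 against 19 animals). The 95% intervals of the 8 genes stayed between -0.111 and 0.157.

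Between separated and control animals at P22, again no gene was called (0%), and 3.08% of all genes had an unadjusted p under 0.05. Of the 8 genes 7 had a positive difference, with a median of 0.04 against 0.01 over all genes. Pmvk was the gene with an unadjusted p under 0.05: it was 0.08 ± 0.0338 higher on the log2 scale in separated animals (21 against 17; adjusted p = 0.999). In wildtypes its mean was 80.1 ± 5.13 CPM (SD, n = 8) under control rearing and 86.7 ± 5.68 (n = 11) after separation. In knockouts it was 86.5 ± 5.17 (n = 9) and 89.6 ± 7.81 (n = 10). The control wildtype group was lowest, and all 4 groups overlapped. Insig1 had the largest difference, 0.11 with an interval from -0.01 to 0.22.

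The interaction of genotype and rearing at P22 was negative for 6 of the 8 genes, with a median of -0.08 against 0.00 over all genes. No gene was called (0%), and 8.47% of all genes had an unadjusted p under 0.05, among the 8 Fdps (-0.18, interval -0.34 to -0.02, adjusted p = 0.584). In wildtypes Fdps ran from 115.5 to 157.3 CPM under control rearing (median 132.2) and from 127.6 to 159.3 after separation (median 147.6). In knockouts it ran from 133.5 to 173.6 under control rearing (median 144.6) and from 124.1 to 168.3 after separation (median 141.5). Its control wildtype median was below the other 3 by more than those differed from each other. In wildtype animals alone the separated group was higher by 0.14 in Fdps and by 0.12 in Pmvk (adjusted p = 0.753 for both), these being the 2 of the 8 genes with an unadjusted p under 0.05, which 6.58% of all genes had. DESeq2 and limma-voom called none of the 8 in any comparison at P22. Choroid plexus RNA moved with this term: all 7 measured markers were negative, with a median of -1.25, and 5 had an unadjusted p under 0.05. The 9 myelin markers were also all negative (median -0.37). Their part in the values of the 8 genes was not tested.

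At P66 knockout and wildtype animals again did not differ in any of the 8 genes by the adjusted test. Over the table, 0.0571% of genes were called and 8.36% had an unadjusted p under 0.05, among the 8 only Mvk, at 0.11 ± 0.0505 (adjusted p = 0.522; 14 against 17 animals). Mvk averaged 46.3 ± 3.32 CPM (SD, n = 7) in wildtypes under control rearing and 43.9 ± 5.15 (n = 10) after separation, and 46.9 ± 4.24 (n = 7) and 51.3 ± 5.43 (n = 7) in knockouts. The intervals of the 8 genes stayed between -0.131 and 0.217. In cohort 2 alone, where 96 of 7106 genes were called, Insig1 was called higher in knockouts (0.21, adjusted p = 0.0290). In cohort 1 alone Insig1 was at -0.12 (adjusted p = 0.9996) and in both together at 0.01.

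Between separated and control animals at P66, 0.371% of all genes were called and none of the 8. Of the 8 genes 7 were positive, with a median of 0.05 against -0.00 over all genes, and 2, Fdps and Cyp51, were among the 12.2% of genes with an unadjusted p under 0.05. Fdps was 0.12 ± 0.0396 higher in separated animals (17 against 14; adjusted p = 0.172) and Cyp51 0.09 ± 0.0367 higher (adjusted p = 0.276). Insig1 went the other way, at -0.09 with an interval from -0.22 to 0.03. The 9 myelin markers were all positive (median 0.16, none called), and with the cell type scores in the model Fdps was at 0.09 (adjusted p = 0.496) and Cyp51 at 0.08 (adjusted p = 0.519).

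By genotype the difference had larger values in the knockouts, although the contrast of the genotypes did not pass its own test. Fdps ran from 92.2 to 121.1 CPM in control knockout (median 107.3) and from 110.3 to 149.8 CPM in separated knockout animals (median 125.1). Cyp51 ran from 111.2 to 142.8 CPM (median 122.4) and from 134.2 to 150.4 CPM (median 141.6). In both genes the separated animals took up the upper end and the ranges overlapped. On the log2 scale the difference in knockouts was 0.20 for Fdps (adjusted p = 0.211), 0.15 for Cyp51 (adjusted p = 0.278), 0.15 for Pmvk (adjusted p = 0.375) and 0.13 for Dhcr7 (adjusted p = 0.405). These were the 4 of the 8 genes with an unadjusted p under 0.05 there, which 11.2% of all genes had. The median of the 8 was 0.12 in knockouts and 0.01 in wildtypes. In wildtypes Insig1 alone of the 8 had an unadjusted p under 0.05 (-0.20, adjusted p = 0.628), against 6.7% of all genes. Within separated animals knockouts were higher than wildtypes by 0.21 in Mvk (adjusted p = 0.378) and by 0.11 in Dhcr7 (adjusted p = 0.445) and lower in Insig2 by a log2 change of -0.12 (adjusted p = 0.398), the 3 with an unadjusted p under 0.05, against 11.2% of all genes.

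The interaction at P66, which is that contrast, was positive for 7 of the 8 genes with a median of 0.14 against -0.00 over all genes. None was called, no gene of the table was (0%), and 0 of the 8 had an unadjusted p under 0.05, which 4.53% of all genes had. The values ran from -0.13 for Insig2, with an interval from -0.27 to 0.01, to 0.22 for Insig1, with an interval from -0.02 to 0.46. Fdps was at 0.16, Mvk at 0.19, Dhcr7 at 0.15, Pmvk at 0.13, Cyp51 at 0.12 and Hsd17b7 at 0.08, and the adjusted p was 0.794 for each of the 8. DESeq2 and limma-voom called none of the 8 in any comparison at P66. The genes were correlated across animals, so 7 positive values are not 7 separate observations.

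**Figure D3:**
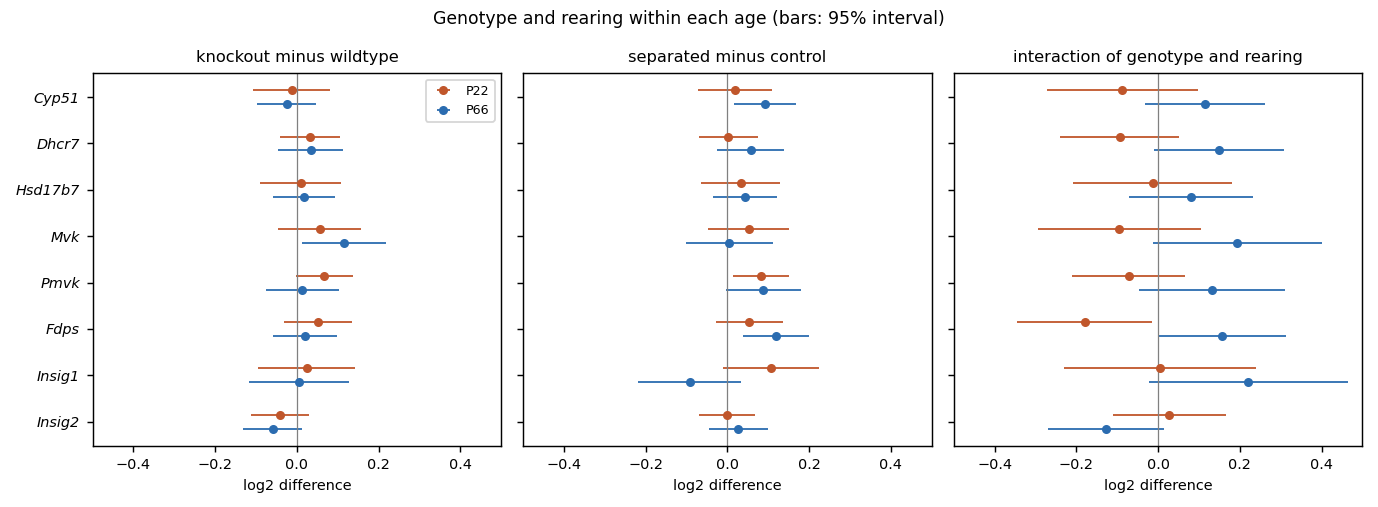
Log2 differences (horizontal axis) with 95% intervals for knockout against wildtype, separated against control, and the interaction of both, at P22 (orange) and P66 (blue). No value passed the adjusted test. In the interaction panel most genes lie below 0 at P22 and 7 of the 8 lie above 0 at P66.

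The cohorts were compared with each other in the same models. None of the 8 genes was called between cohorts over all libraries (0% of all genes; 4.73% had an unadjusted p under 0.05). Nor was any at P66 (0% and 3.51%), where Insig1 was at -0.16 (adjusted p = 0.995), the one gene of the 8 with an unadjusted p under 0.05. In separated wildtype animals at P66 the 4 cohort 2 libraries held Insig1 at 103.6, 106.8, 109.9 and 112.4 CPM. The 6 cohort 1 libraries of that group held it at 136.6, 143.2, 149.2, 158.9, 167.1 and 183.0 CPM, with no overlap. This split was noticed after the values had been seen. Cohort 2 held only 2 separated knockouts at P66, with Insig1 at 150.6 and 148.3 CPM. Fitted in cohort 2 alone, Insig1 was lower in separated than in control wildtype animals at P66 by a log2 change of -0.48 ± 0.0527 (adjusted p = 0.00151). Within separated animals of that cohort it was 0.48 ± 0.0635 higher in the 2 knockouts than in the 4 wildtypes (adjusted p = 0.00514). In cohort 1 alone the same differences were 0.00149 ± 0.0951 (adjusted p = 0.995) and -0.07 ± 0.0814 (adjusted p = 0.643). These single-cohort fits use the libraries in which the split was noticed, so their p-values are not separate evidence of it. The share of all genes called in these fits is not given here. The difference between the cohorts was not tested.

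Across animals, levels of the genes were linked beyond the means of group and cohort. Group and cohort means were taken out of the log2 CPM, and Pearson correlations were computed for the 28 pairs over 69 libraries, with permutation p-values adjusted over the 28 pairs. An adjusted p printed with a pair is that of r, also where rho stands before it, unless stated otherwise. Of the 28 pairs 20 passed by r, 14 positive and 6 negative. Correlation is common in these libraries, since 34.2% of all gene pairs reached the smallest coefficient that passed here, 17.1% positive and 17.1% negative. By rho, the Spearman coefficient, Cyp51 with Pmvk (rho = 0.27, adjusted p of rho = 0.0335) passed, though not by r. So did Pmvk with Insig1 (rho = 0.27, adjusted p of rho = 0.0355). The residuals share library quality and tissue content. A cohort difference found in only some groups stays in them, such as that of Insig1 in separated wildtypes at P66. It also stays in the correlations within each cohort. Permutations were not kept within groups.

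Mvk, Pmvk, Fdps and Dhcr7 formed the tightest set. Dhcr7 with Fdps had r = 0.72 (rho = 0.69), Mvk with Fdps r = 0.71 (rho = 0.72), Mvk with Pmvk r = 0.68 (rho = 0.65) and Pmvk with Fdps r = 0.67 (rho = 0.64). Each had a permutation p of 1e-05, the smallest that 100000 resamples can give, and an adjusted p of 3.11e-05 for r and 3.5e-05 for rho. Each was also computed without the 2 libraries farthest from the median in 1 gene of the pair, namely Dhcr7, Mvk, Pmvk and Pmvk. These 4 coefficients were then 0.71, 0.69, 0.66 and 0.62, and libraries extreme in the other gene were kept. Within cohort 1 they were 0.71, 0.67, 0.72 and 0.64, and within cohort 2 0.76, 0.74, 0.64 and 0.70.

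Hsd17b7 stood apart from that set: with Dhcr7 its r was 0.01, with Fdps -0.03, with Mvk -0.18 (rho = -0.24, adjusted p = 0.159) and with Pmvk -0.35 (rho = -0.34, adjusted p = 0.00411). It varied with Insig1 (r = 0.54, rho = 0.42, adjusted p = 3.11e-05) and with Cyp51 (r = 0.48, rho = 0.41, adjusted p = 7e-05). Without the 2 libraries farthest from the median in Hsd17b7, the coefficients with Pmvk and Insig1 were -0.27 and 0.46. Without the 2 farthest in Cyp51, the coefficient of Hsd17b7 with Cyp51 was 0.48. Hsd17b7 with Mvk was at -0.42 in cohort 1 (adjusted p = 0.0317) and -0.03 in cohort 2. The Pmvk link was at -0.38 in cohort 1 (adjusted p = 0.0509) and -0.34 in cohort 2 (adjusted p = 0.0590). Cyp51 was linked to Fdps (r = 0.51, rho = 0.51), to Insig1 (r = 0.50, rho = 0.46) and, weakly, to Dhcr7 (r = 0.27, rho = 0.34, adjusted p = 0.0343), the last at 0.12 in cohort 1 and 0.47 in cohort 2.

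The 2 Insig genes varied in opposite senses. Insig1 was positive with Fdps (r = 0.43, rho = 0.46), Mvk (r = 0.42, rho = 0.47) and Dhcr7 (r = 0.39, rho = 0.44), with adjusted p from 3.73e-04 to 0.00129. Insig2 was negative with Mvk (r = -0.58, rho = -0.54), Dhcr7 (r = -0.56, rho = -0.56), Fdps (r = -0.45, rho = -0.47) and Pmvk (r = -0.36, rho = -0.38), with adjusted p from 3.11e-05 to 0.00344, and with Insig1 itself (r = -0.45, rho = -0.48, adjusted p = 1.08e-04). In cohort 1 alone Insig1 with Insig2 was at -0.36 (adjusted p = 0.0651) and in cohort 2 alone at -0.55. With the cell type scores also taken out, 20 of 28 pairs passed, 13 positive and 7 negative. Cyp51 with Dhcr7 then no longer passed (r = 0.06, adjusted p = 0.627), and Hsd17b7 with Mvk did (r = -0.25, adjusted p = 0.0497). In cohort 1 alone 14 pairs passed and in cohort 2 alone 19, and those that did not pass in cohort 1 included Insig1 with Dhcr7, Mvk, Hsd17b7 and Insig2.

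**Figure D4:**
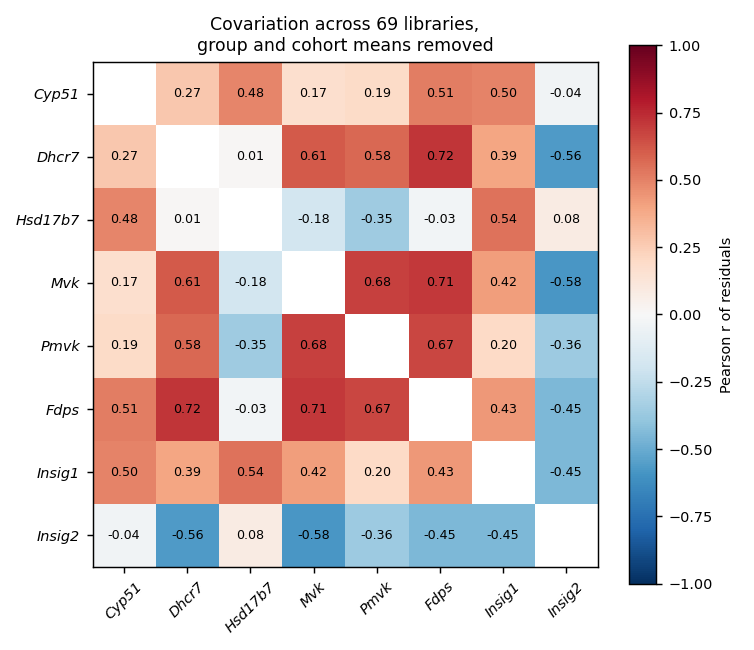
Pearson correlation of each pair of genes over 69 libraries after group and cohort means were removed; red is positive, blue negative, and each square prints its coefficient. The block of Dhcr7, Mvk, Pmvk and Fdps holds the highest values, and the Insig2 row is negative with these 4 and with Insig1.

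The residuals of the genes also moved with marker scores, given here as a description over 69 libraries that share depth and dissection. Each score was the mean log2 CPM of a marker list, with each gene centred and group and cohort means taken out. With the myelinating oligodendrocyte score, r was 0.59 for Cyp51, 0.53 for Fdps and 0.41 for Dhcr7, and -0.26 for Insig2. With the astrocyte score it was 0.61 for Mvk, 0.53 for Fdps, 0.48 for Dhcr7 and -0.49 for Insig2. The hippocampus score went the other way, at -0.56 for Dhcr7, -0.48 for Fdps, -0.41 for Mvk, -0.38 for Pmvk and 0.45 for Insig2, as did the neuron score, at -0.45 for Pmvk, -0.37 for Mvk and 0.40 for Insig2. Hsd17b7 had its highest coefficient with oligodendrocyte precursors (0.43) and neurons (0.40), and Insig2 with endoplasmic reticulum chaperones (0.47), where Insig1 was at -0.41. Only 3 of the 12 listed chaperones were measured.

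For each gene the non-member genes most like it were those with the highest residual correlation among 7131 genes over 69 libraries. Among the 3 most like Fdps were Tsc22d4 (r = 0.82) and Cadm4 (0.77), and among those most like Dhcr7 were Rtkn (0.79) and Gm43738 (0.79). Gm43738 is the model that overlaps Fdps. Mvk was most like Hip1r (0.78), Glmp (0.77) and the astrocyte marker Aldh1l1 (0.75), and Pmvk like Plekhm2 (0.75), Shisa4 (0.74) and Cadm4 (0.72). Cyp51 was most like Wipf1 (0.70), Usp6nl (0.67) and Rnf152 (0.67), and Hsd17b7 like Kcna1, a potassium channel (0.69), Klf7 (0.63) and Itgav (0.62). Among the 3 most like Insig1 were Snx7 (0.61) and Sh2d3c (0.54), and Insig2 was most like the chaperone Dnaja1 (0.77), Phospho2 (0.77) and Rmnd5a (0.74). The closest other gene of the 8 ranked 3 for Insig1, 9 for Dhcr7, 19 for Fdps, 25 for Mvk, 27 for Pmvk, 28 for Hsd17b7, 63 for Cyp51 and 2631 for Insig2.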

How the data were processed

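Total RNA of the hippocampus of 69 mice was sequenced, 1 library per animal. The authors deposited whole-number read counts per gene in 1 table. The submitters' processing notes name limma 3.34.9, edgeR, cutadapt 1.16 and FastQC 0.11.4 as tools. Strand use, aligner, counter and genome build were not given in the sources used here. There were 9931 records. One was incomplete and was left out. The remaining 9930 genes lie on chromosomes 1 to 7 and the start of 8, and other chromosomes were not analysed here. GENCODE M21 held 99.55% of the identifiers, of which 96.5% had the same position in GRCm38.

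Tests used edgeR 4.0.16 under R 4.3.3 (trimmed mean scaling, filterByExpr with a minimum count of 10 and a minimum total of 15, quasi-likelihood test, Benjamini-Hochberg adjustment over all genes tested). Models within an age held the 4 groups of genotype and rearing and the cohort, and the model of both ages held all 8 groups and the cohort. P22 (38 libraries, 7036 genes) and P66 (31 libraries, 7001 genes) were fitted apart, and the ages were compared in a model of all 69 libraries (7131 genes). The term "unadjusted p" is the same test without adjustment. No 2 libraries of a group were as alike as sampling noise alone would make them: over 272 pairs the chi-square of their counts per degree of freedom was between 4.60 and 91.8. All 8 genes are named, with listed genes of the pathway and, for each of the 8, the 3 most correlated genes. Some of these genes are not reported here. The members and lists were chosen with earlier results of these data known. Scripts were tested on simulated data.

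The alternatives were DESeq2 1.42.0, limma 3.58.1 voom, size factors of the RLE method, no count filter, each cohort alone, no cohort term, a filter of at least 1 CPM in 7 libraries, all 69 libraries in 1 model for the comparisons within an age, scores of myelinating oligodendrocyte and choroid plexus markers as covariates, a threshold of 0.1 and leaving out each library in turn. Leaving out the 6 libraries low in choroid plexus RNA was added after seeing the data.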

Additional observations from a re-analysis of the deposited data

Results flagged for a closer look

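Of 56 sets of 1 gene in 1 group of 7 to 10 animals, 3 held a library apart from the rest of its group by a gap larger than Dixon's 95% critical value, and chance alone gives about 1 in 20 sets. Dhcr7 stood at 122.4 CPM in the separated knockout animal numbered 56 of cohort 1 at P66, against 98.6 CPM in the next highest of the 7, a gap of 0.788 of the group's range (critical value 0.568). Mvk stood at 37.97 CPM in the control knockout animal numbered 22 of cohort 1 at P66, against 46.5 CPM in the next lowest of the 7, a gap of 0.652 of the range. Insig1 stood at 119.2 CPM in the control knockout animal numbered 30 of cohort 1 at P66, against 139.4 CPM in the next lowest, a gap of 0.569 of the range. The 3 libraries are different animals. The animal numbered 56 was also the highest of its group in Pmvk (97.5 CPM), Mvk (60.4), Fdps (149.8) and Insig1 (172.3). It was the lowest in Insig2 (102.3 CPM), and none of these passed the critical value. The animal numbered 22 was also the lowest of its group in Dhcr7 and Pmvk and the highest in Hsd17b7. The animal numbered 30 was also the lowest in Hsd17b7 and the highest in Insig2.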

How the results depend on the processing

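The falls of the 6 enzymes with age kept their sign under every alternative run, and 7 of the 8 genes were called with age whichever single library was left out. With the full design the counts were 4 genes for knockout against wildtype and 26 for separated against control at P66, 3707 for age, 3 for age by rearing, 1 for age by genotype by rearing and 0 for age by genotype. In cohort 2 alone, the calls were 1 of the 8 genes for knockout against wildtype P66, 96 genes for knockout against wildtype P66, 2 genes for separated against control P66, 1 of the 8 genes for knockout against wildtype, separated rearing P66, 1 of the 8 genes for separated against control, wildtype P66, 2 of the 8 genes for age, control wildtype, 2 of the 8 genes for age, separated knockout, 5 genes for age by genotype, 0 genes for age by rearing, 0 genes for age by genotype by rearing. With DESeq2, the calls were 11 genes for knockout against wildtype P66, 98 genes for separated against control P66. In cohort 1 alone, the calls were 0 genes for knockout against wildtype P66, 0 genes for separated against control P66, 2176 genes for age, 3 of the 8 genes for age, control wildtype, 1 of the 8 genes for age, separated knockout, 0 genes for age by rearing, 0 genes for age by genotype by rearing. At an adjusted p under 0.1, the calls were 8 genes for knockout against wildtype P66, 59 genes for separated against control P66. With no count filter, the calls were 9 genes for separated against control P66. With no cohort term, the calls were 41 genes for separated against control P66. With the cell type scores as covariates, the calls were 0 genes for separated against control P66, 2 of the 8 genes for age, 1075 genes for age, 1 of the 8 genes for age, control wildtype, 1 of the 8 genes for age, separated wildtype, 2 of the 8 genes for age, control knockout, 1 of the 8 genes for age, separated knockout, 0 genes for age by genotype by rearing. Without the 6 libraries low in choroid plexus RNA, the calls were 7 genes for separated against control P66, 3 of the 8 genes for age, separated knockout, 0 genes for age by genotype by rearing. Within single groups these counts of the 8 have no share of all genes beside them. With the full design, age called 18.9% and 30.8% of all genes in control and separated wildtypes, and 28.1% and 19.2% in control and separated knockouts. Comparisons at P66 within 1 genotype or 1 rearing called 0%. Each single-cohort fit of age in separated knockouts had only 2 animals at 1 of the ages. The following log2 differences (or, for pairs, correlations) had the opposite sign to their value in the full design. In cohort 2 alone: for knockout against wildtype P22 Cyp51 0.052, for separated against control P22 Cyp51 -0.042, Dhcr7 -0.037, Insig2 0.0020, for knockout against wildtype P66 Pmvk -0.00041, for separated against control P66 Mvk -0.069, for genotype by rearing P66 Pmvk -0.026, for age by genotype Dhcr7 -0.0087, Insig1 0.18, for age by genotype by rearing Pmvk -0.033, for covariation Hsd17b7-Insig2 -0.076. With all 69 libraries in 1 model: for knockout against wildtype P22 Cyp51 0.0015, for separated against control P22 Insig2 0.00063. Without the 6 libraries low in choroid plexus RNA: for knockout against wildtype P22 Cyp51 0.0014, for separated against control P22 Cyp51 -0.027, Hsd17b7 -0.0024, Insig2 0.00015, for genotype by rearing P22 Insig1 -0.075. In cohort 1 alone: for knockout against wildtype P22 Mvk -0.036, for genotype by rearing P22 Insig2 -0.082, for knockout against wildtype P66 Hsd17b7 -0.029, Pmvk -0.0040, Insig1 -0.12, Insig2 0.019, for separated against control P66 Insig1 0.054, Insig2 -0.0027, for genotype by rearing P66 Hsd17b7 -0.050, for age by genotype Cyp51 0.048, Dhcr7 -0.0052, Hsd17b7 -0.027, Fdps 0.0054, Insig2 0.10, for age by rearing Mvk 0.024, for age by genotype by rearing Hsd17b7 -0.021, for covariation Cyp51-Mvk -0.0039, Cyp51-Insig2 0.080, Dhcr7-Hsd17b7 -0.028. With the cell type scores as covariates: for separated against control P22 Cyp51 -0.031, Dhcr7 -0.040, Insig2 0.023, for genotype by rearing P22 Cyp51 0.057, Hsd17b7 0.061, Insig2 -0.0028, for knockout against wildtype P66 Pmvk -0.0014, for separated against control P66 Mvk -0.017, for age Insig1 0.12, for age by genotype Dhcr7 -0.011. With DESeq2: for separated against control P22 Dhcr7 -0.0023, for genotype by rearing P22 Insig1 -0.00028. With RLE size factors: for separated against control P22 Dhcr7 -0.0023, for genotype by rearing P22 Insig1 -0.00048, for covariation Dhcr7-Hsd17b7 -0.0012. With no count filter: for separated against control P22 Dhcr7 -0.00089, for genotype by rearing P22 Insig1 -0.010. With the stricter count filter: for separated against control P22 Dhcr7 -0.0029. With no cohort term: for separated against control P22 Dhcr7 -0.00022, Insig2 0.0032. With limma-voom: for genotype by rearing P22 Insig1 -0.0077. With the cell type scores removed: for covariation Cyp51-Insig2 0.16, Dhcr7-Hsd17b7 -0.10. With 1 library left out at a time, values that changed sign ranged as follows: for knockout against wildtype P22 Cyp51 -0.027 to 0.020, Hsd17b7 -0.0052 to 0.032; for separated against control P22 Cyp51 -0.0064 to 0.033, Dhcr7 -0.013 to 0.014, Insig2 -0.021 to 0.018; for genotype by rearing P22 Hsd17b7 -0.046 to 0.035, Insig1 -0.043 to 0.047, Insig2 -0.0013 to 0.050; for knockout against wildtype P66 Pmvk -0.0075 to 0.041, Insig1 -0.010 to 0.038; for separated against control P66 Mvk -0.028 to 0.022; for age by genotype Dhcr7 -0.024 to 0.022, Hsd17b7 -0.015 to 0.023; for age by rearing Hsd17b7 -0.0073 to 0.035, Pmvk -0.0052 to 0.043. Counts of calls that moved ranged over 3 to 8 genes for knockout against wildtype P66; 3 to 75 genes for separated against control P66; 3 to 6 of the 8 genes for age, separated knockout; 3 to 6 genes for age by rearing; 1 to 2 genes for age by genotype by rearing. None of the differences that changed sign was called in either setting. The lowest count for separated against control at P66 came without the control wildtype library numbered 6 of cohort 1 and the highest without the separated knockout library numbered 84 of cohort 2. The cause of these changes was not tested. No paired analysis was possible because each animal gave 1 library and litters are not labelled. Animal numbers give no pairs either, since each cohort and rearing group has its own run and the same number then names different animals. Depth did not limit the 8 genes, which had at least 426 counts in every library.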
